A study of Punica granatum with 4 samples.

Results

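The genes described here are 55 of the 27893 features counted in pomegranate (Punica granatum) leaf RNA. Each was higher in the libraries of plants sprayed with 0 and 30 µM abscisic acid (ABA) than in those of plants sprayed with 60 and 90 µM. They were selected on their measured levels in all 4 libraries, so the drop between 30 and 60 µM is the way they were found and is given as a description without a test. The level is CPM, counts per 1000000 counts of the library. After 0.1 was added to each CPM, the smaller of the values at 0 and 30 µM had to be at least 2 times the larger of those at 60 and 90 µM. The ratio of 90 to 60 µM had to lie between 0.77 and about 1.7, the mean CPM had to be at least 2, and the 100 features with the highest mean CPM were left out. The level limits alone left 17435 genes, so the 55 are those of them that met the limits on the ratios.

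All plants were wild-type cuttings of the strain labelled Hongmanao, aged 180 days, and all of them, the controls included, were under drought with soil water at 30% to 35% of field capacity. The control group was sprayed with distilled water (0 µM) and the other groups with 30, 60 or 90 µM ABA, 5 mL a day. Each dose has 1 library, and the labels do not say whether it came from 1 plant or from several. A difference between doses therefore cannot be told apart from a difference between plants, and none of those below has a replicate check. The intervals given are exact 95% intervals of a ratio of counts, and they cover counting error only.

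ABA is the hormone that plants accumulate in drying tissue. It binds receptors of the PYR/PYL family, which then block PP2C phosphatases and so release SnRK2 kinases, and these kinases act on ion channels of the guard cells and on transcription factors. Transcripts lowered by ABA in leaves of other plants often belong to growth and photosynthesis. The counts and the gene table used here identify genes by LOC numbers without product descriptions, so no role is given to any member and leaf markers were not checked. In whole-leaf RNA, fewer cells of a type and less RNA per cell cannot be told apart.

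The libraries held 22118468 to 28366719 counts, so that 3 counts correspond to between 0.106 and 0.136 CPM. Of the 55 members, 54 are protein-coding genes and 1, LOC116187197, is a lncRNA gene. The lncRNA share of the members was 1.82%, against 2.35% of the 17435 genes at the same level limits. Most members had fewer reads than the median of the 17435 genes: their median mean level was 6.21 CPM, against 26.3 CPM. The median was 29.9 CPM for the 103 genes that met the mirrored rule, higher at 60 and 90 µM. These means include the 60 and 90 µM libraries, where the rules chose low members and high mirror genes. At 0 µM the median was 8.86 CPM for the members, 26.8 CPM for the 17435 genes and 11.2 CPM for the mirror genes. The part of counting error in which genes passed the rule was not tested. The mean level was 10 CPM or more for 16 members and under 5 CPM for 17. Member counts ran from 74 to 6746 at 0 µM, from 45 to 8512 at 30 µM, from 18 to 3013 at 60 µM and from 22 to 4046 at 90 µM. No member was at 0 in any library. CPM is not divided by transcript length, so levels are compared below within a gene and not between genes.

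The medians over the members traced a plateau, a drop and a second plateau. The drop and the second plateau were set by the rule. The median member had 8.86 CPM at 0 µM, 9.52 CPM at 30 µM, 3.00 CPM at 60 µM and 3.31 CPM at 90 µM. On the log2(CPM + 0.1) scale the median difference from the control was 0.10 at 30 µM, -1.52 at 60 µM and -1.38 at 90 µM. Over all 17435 genes the corresponding medians were -0.03, -0.03 and -0.15. With TMM factors from edgeR, which correct for differences in library composition, the median over all genes at 90 µM was -0.0051, so the lower median there depends on the scaling. The smallest fold of a gene is used below for the fold between its lower level at 0 or 30 µM and its higher level at 60 or 90 µM. It had a median of 2.30 and ranged from 2.00 to 6.84. It was under 2.5 for 34 members, at least 3 for 9 and at least 4 for 2.

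**Figure D1:**
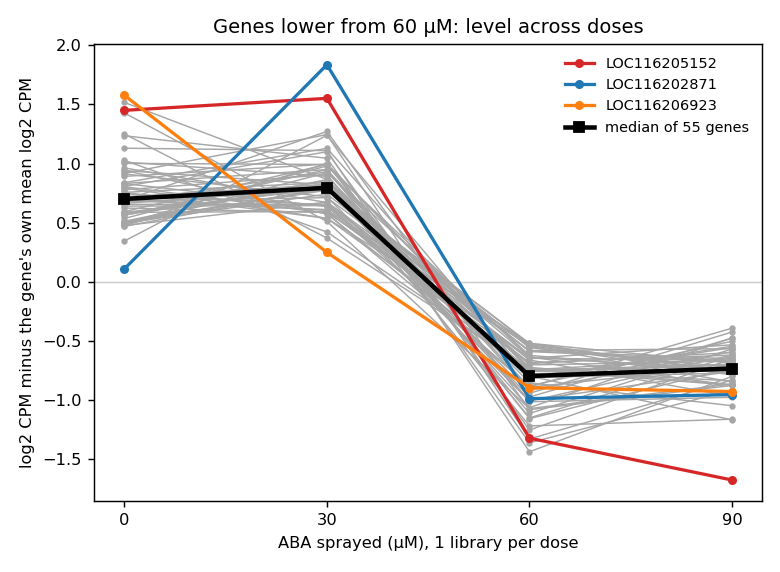
Level of each of the 55 members (grey lines) across the ABA dose in µM, as log2 CPM minus the gene's own mean log2 CPM over the 4 libraries. The black line is the median, and coloured lines mark the gene with the largest smallest fold (LOC116205152) and the genes with the highest (LOC116202871) and lowest (LOC116206923) ratio of 30 to 0 µM. All lines lie above 0 at 0 and 30 µM and below 0 at 60 and 90 µM, and LOC116202871 is the closest to 0 at 0 µM.

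Of the members, LOC116201941 and LOC116187072 took the most reads. LOC116201941 had 305 and 354 CPM at 0 and 30 µM, and 106 and 152 CPM at 60 and 90 µM. Its smallest fold, 0 over 90 µM, was 2.00 (interval 1.93 to 2.08), which puts it at the edge of the rule. LOC116187072 had 242 and 297 CPM at 0 and 30 µM, and 58.1 and 88.2 CPM at 60 and 90 µM. Its smallest fold was 2.75 (interval 2.62 to 2.89). Both genes were higher at 30 than at 0 µM and higher at 90 than at 60 µM, so within each pair of doses the library of the larger dose held more of them. Summed over the 55 members, the level was 1325 CPM at 0 µM, 1517 CPM at 30 µM, 438 CPM at 60 µM and 525 CPM at 90 µM, a sum in which these 2 genes have the largest part.

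LOC116203341 had 76.1, 100.4, 30.1 and 28.2 CPM at 0, 30, 60 and 90 µM, with a smallest fold of 2.53 (interval 2.33 to 2.75). LOC116206878 had 81.0, 76.0, 28.9 and 31.0 CPM and a smallest fold of 2.45 (interval 2.26 to 2.67). For these genes the interval of each of the 4 ratios of a low to a high library lay beyond 2-fold. LOC116207093 had 37.4 CPM at 0 µM, 56.0 CPM at 30 µM, 11.0 CPM at 60 µM and 12.6 CPM at 90 µM, a smallest fold of 2.96 (interval 2.61 to 3.37). LOC116187765 differed little within each pair of doses, with 30.2 and 30.1 CPM at 0 and 30 µM and 7.47 and 7.67 CPM at 60 and 90 µM. Its smallest fold was 3.92 (interval 3.35 to 4.60).

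Of the 10 members with the most reads, 3 more are given here, and LOC116202871 is described further on with the differences between 0 and 30 µM. LOC116187753 had 35.9, 36.0, 12.4 and 17.5 CPM, a smallest fold of 2.05 (interval 1.82 to 2.30). LOC116192242 had 34.4, 33.5, 15.5 and 13.8 CPM, a smallest fold of 2.15 (interval 1.91 to 2.42). LOC116200128 had 31.7, 36.7, 12.0 and 14.4 CPM, a smallest fold of 2.21 (interval 1.95 to 2.51). In these 3 genes the interval of the smallest fold includes 2, so counting error alone could put the true ratio of these libraries on either side of the limit.

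The largest drop belonged to LOC116205152. It had 240 counts at 0 µM and 280 at 30 µM, but 45 at 60 µM and 33 at 90 µM, or 10.9, 11.6, 1.59 and 1.24 CPM. Its smallest fold was 6.84 (interval 4.96 to 9.63), and its level at 30 µM was 9.38 times that at 90 µM. The next largest, LOC116214803, had 208, 144, 40 and 39 counts at the rising doses, with a smallest fold of 4.08 (interval 2.85 to 5.97). LOC116214803 was lower at 30 than at 0 µM, while the ratio of LOC116205152 between these libraries was 1.07 (interval 0.900 to 1.28).

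Several members with a drop of over 3-fold had low counts and wide intervals. LOC116199555 had 85, 81, 18 and 23 counts and a smallest fold of 3.89 (interval 2.42 to 6.48). LOC116202976 had 111, 119, 24 and 35 counts and a smallest fold of 3.76 (interval 2.56 to 5.65). LOC116198954 had 137, 187, 37 and 49 counts and a smallest fold of 3.36 (interval 2.41 to 4.76). These intervals overlap each other, so the order of these genes by size of the drop is within counting error. LOC116203065, with 552, 552, 194 and 159 counts, had a smallest fold of 3.36 and a narrower interval, from 2.84 to 3.97. LOC116208641 had 184, 215, 57 and 72 counts and a smallest fold of 3.07 (interval 2.33 to 4.09). LOC116194584 had 97, 129, 40 and 29 counts and a smallest fold of 3.11 (interval 2.13 to 4.61).

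**Figure D2:**
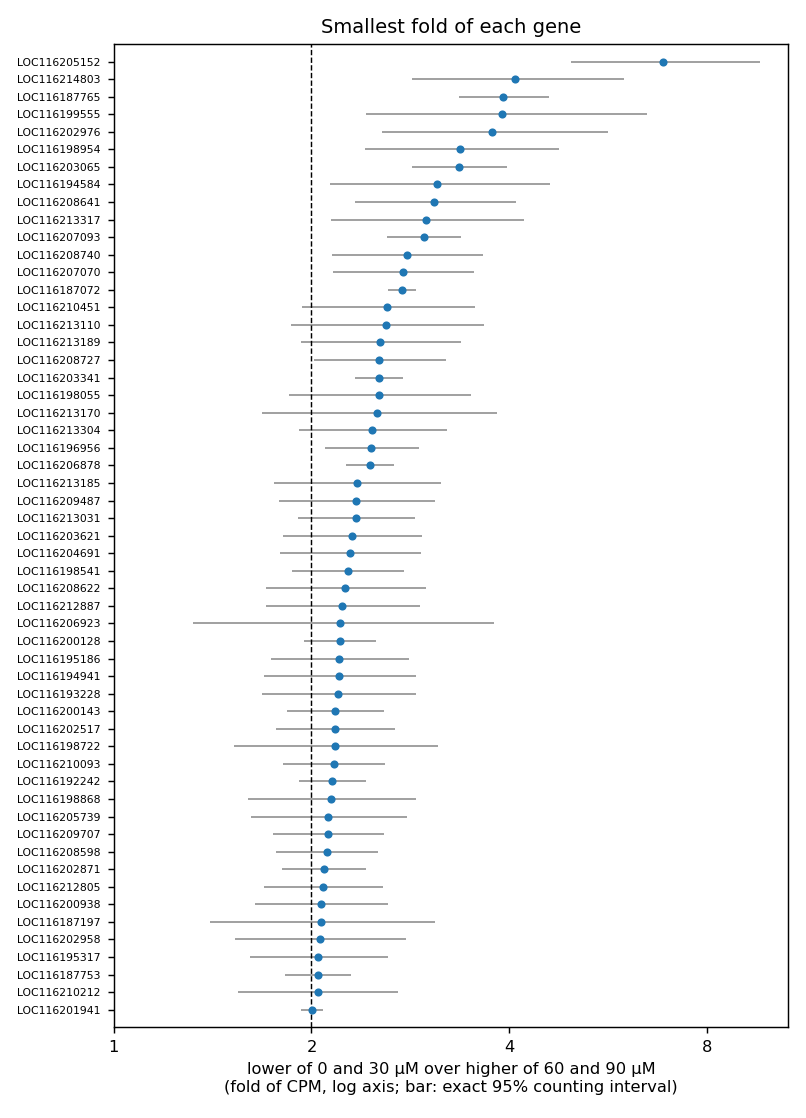
Smallest fold of each member, the lower CPM of 0 and 30 µM over the higher CPM of 60 and 90 µM, on a log axis, with its exact 95% counting interval as a bar. The dashed line marks 2-fold, and the points run from 2.00 to 6.84, with LOC116205152 standing above the others.

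How firmly each drop is counted was described by calling a gene lower when the interval of a ratio lay wholly below 0.5. At 60 against 0 µM, 37 of the 55 members were called lower, where 2.81% of the 17435 genes were. At 90 against 0 µM the number was 30 (4.59% of all genes), at 60 against 30 µM it was 41 (3.21%) and at 90 against 30 µM it was 40 (3.78%). Under TMM scaling the rule selected 40 genes, of which 25 were called lower at 90 against 30 µM. With a mean CPM of at least 5 it selected 38, of which 19 were called lower at 90 against 0 µM. The rule used these same contrasts, so the members' shares are a description only. A call depends on both the size of the fold and the number of reads. LOC116201941, the member with the most reads, was not called at 90 against 0 µM (ratio 0.499, interval 0.480 to 0.519). In all 4 comparisons 18 members were called, in 3 of them 9, in 2 of them 22, in 1 of them 5 and in none 1. The member called in none was LOC116202958, with 125, 156, 77 and 73 counts. The interval of the smallest fold included 2 for 37 members. A level at both 60 and 90 µM below that at both 0 and 30 µM, of any size, was found in 25.5% of all 17435 genes.

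Members just inside and just outside the limit differed little. With 0.1 added to each CPM, the fold that the rule used was 2.00 for LOC116201941, 2.01 for LOC116187197, 2.01 for LOC116210212 and 2.02 for LOC116202958. Just outside lay LOC116199236 at 1.99, LOC116197843 at 1.98, LOC116207249 at 1.97 and LOC116204960 at 1.96. LOC116197843, for example, had 14.5, 16.3, 7.26 and 6.39 CPM, a profile of the same shape. The folds ran on across the limit without a gap. With TMM factors from edgeR in place of library totals, 38 of the 55 still met the rule, the 4 members on chromosome 5 that lie close together included. The 17 that no longer did all had a smallest fold under 2.5, and LOC116201941, LOC116202871, LOC116187753, LOC116200128, LOC116198722 and LOC116206923 were among them.

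The rule set no limit on the ratio of 30 to 0 µM itself, only a floor under both levels. Between these libraries 34 members (61.8%) were higher at 30 µM and 21 were higher at 0 µM, while 46.3% of the 17435 genes were higher at 30 µM. The interval of the ratio included 1 for 32 members, lay above 1 for 16 and below 1 for 7. LOC116202871 was the only member called more than 2-fold higher at 30 µM, against 1.34% of all genes, and 0 members were called more than 2-fold lower, against 1.62%. It had 499, 1797, 299 and 287 counts at the rising doses, so its level at 30 µM was 3.31 times that of the control (interval 3.00 to 3.66). Its level at 30 µM was high and the other 3 libraries were closer together, with 22.6, 10.5 and 10.8 CPM at 0, 60 and 90 µM.

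Others with a difference between 0 and 30 µM were less far apart. LOC116198722 had 92, 186, 53 and 51 counts at the rising doses, and its ratio of 30 to 0 µM was 1.86 (interval 1.44 to 2.41). LOC116209487 was likewise highest at 30 µM, with 7.01, 9.98, 3.00 and 2.97 CPM, a ratio of 30 to 0 µM of 1.42 (interval 1.16 to 1.75), as did LOC116207093 above with 1.50 (interval 1.37 to 1.63). On the other side, LOC116206923 had 104, 45, 24 and 22 counts at the rising doses, a ratio of 30 to 0 µM of 0.398 (interval 0.274 to 0.570). LOC116213110 had 212, 122, 48 and 52 counts (ratio 0.529, interval 0.420 to 0.664) and LOC116210093 had 603, 356, 194 and 166 counts (ratio 0.543, interval 0.475 to 0.620). These genes were already lower at 30 µM and so stepped down across the first 3 doses rather than from a plateau, as did LOC116214803 (ratio 0.637, interval 0.511 to 0.791).

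Between 60 and 90 µM the rule itself kept the ratio within bounds. The median log2 difference of 90 from 60 µM was 0.04 for the members and -0.12 for all 17435 genes. The lowest level was at 60 µM for 33 members and at 90 µM for 22. Over all 17435 genes, 37.9% were higher at 90 than at 60 µM. The interval of the ratio included 1 for 47 members, lay above 1 for 8 and below 1 for 0. No member was called more than 2-fold higher or lower between these libraries, against 2.34% and 4.35% of all genes, as the bounds require. The clearest differences were those of LOC116187072, 1.52 times as high at 90 as at 60 µM (interval 1.43 to 1.62), and LOC116201941, 1.43 times as high (interval 1.37 to 1.50).

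**Figure D3:**
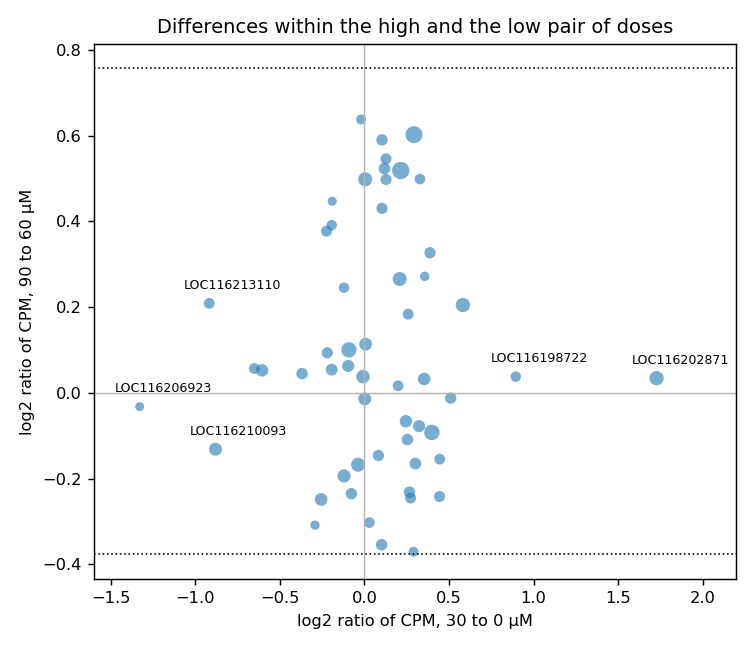
Each point is a member, placed by its log2 ratio of CPM at 30 to 0 µM (horizontal) and at 90 to 60 µM (vertical), with larger points for a higher mean CPM. Dotted lines mark the bounds of the rule on the vertical axis. The rule set no limit on the horizontal ratio itself, only a floor under the levels at 0 and 30 µM. On this axis 34 points lie to the right of 0, with LOC116202871 far to the right and LOC116206923 far to the left.

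A feature that the rule did not use is the place of the members in the genome. Gene order was read from RefSeq's annotation of the assembly ASM765513v2. No build is named for the counts, so no coordinates are given. All 55 members are placed on the 8 chromosomes of that table. Chromosomes 5 and 7 hold 10 members each, 18.2% of the members, and 10.7% of the 17435 genes lie on each of them. Chromosome 2 holds 9.09% of the members against 16% of the genes, chromosome 6 holds 5.45% against 9.43% and chromosome 8 holds 5.45% against 9.73%. On chromosomes 1, 3 and 4 the members' share is 14.5% each, against 14.8%, 12.5% and 15.4% of the genes. No members are direct neighbours. The 103 genes of the mirrored rule have 3 such pairs, but the lists differ in length, so these counts are not compared. On chromosome 5, 4 of the 10 members, LOC116208641, LOC116208598, LOC116208622 and LOC116207070, fall within 25 consecutive genes of the table. This stretch was singled out after its values were seen.

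The first of the 4 members in the stretch, LOC116208641, is described above. LOC116208598 had 391, 356, 199 and 157 counts and a smallest fold of 2.11 (interval 1.77 to 2.52). LOC116208622 had 144, 213, 82 and 65 counts and a smallest fold of 2.25 (interval 1.71 to 2.99). LOC116207070 had 222, 262, 72 and 97 counts and a smallest fold of 2.75 (interval 2.16 to 3.53). Together with LOC116208641 they summed to 42.5, 43.5, 14.5 and 14.7 CPM at 0, 30, 60 and 90 µM.

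The genes between them were not members, and most were lower at the larger doses too. Of the 21 others in the stretch, 7 were under the level limits. Among the remaining 14, 12 had both their 60 and 90 µM levels below both their 0 and 30 µM levels, where 25.5% of all 17435 genes did. Their median difference, the mean log2(CPM + 0.1) at 60 and 90 µM minus that at 0 and 30 µM, was -1.36. It was -0.07 over all 17435 genes and -1.48 over the 55 members. This difference averages 60 and 90 µM, so it does not show whether the drop was already complete at 60 µM. For the 22 genes at the same level limits among the 20 genes on each side of the stretch, the median was -0.06, and 6 of them were lower at both doses. The gene directly before the stretch, LOC116207301, had 7.64, 7.98, 2.43 and 4.17 CPM, so it too was lower at both larger doses.

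These 14 genes missed the rule in different ways. LOC116207196 (15.7, 15.6, 7.30 and 3.27 CPM) and LOC116207042 (32.1, 14.3, 6.84 and 3.16 CPM) passed the 2-fold limit but were lower again at 90 than at 60 µM, beyond the bound on that ratio. LOC116207249 (109, 140, 43.7 and 55.5 CPM), one of the genes just outside the limit, missed it on the fold alone. So did LOC116208549, LOC116207274 and LOC116208573, for which the fold that the rule used was 1.92, 1.81 and 1.50. LOC116207069 had 62.2, 81.8, 15.0 and 32.0 CPM, so that its level at 90 µM was 2.13 times that at 60 µM (interval 1.89 to 2.40). For LOC116208625 this ratio was 2.25 (interval 1.62 to 3.15). The fold that the rule used was also too small, at 1.94 for LOC116207069 and 1.87 for LOC116208625. The ratio of 90 to 60 µM lay under the bound, with the fold also too small, for LOC116207243 (0.298), LOC116207066 (0.522), LOC116207215 (0.522) and LOC116208610 (0.660). At 60 µM LOC116207215 was still at 0.932 times the control (interval 0.863 to 1.01). The exceptions to the lower levels at both doses were LOC116207040 (30.1, 26.3, 36.5 and 16.3 CPM) and LOC116207041 (15.0, 7.23, 8.46 and 1.32 CPM), which were lowest at 90 µM but not lower at 60 than at 30 µM. Neighbouring genes can be near-identical copies that share reads, and without sequences this was not tested, so the values of single genes in the stretch are uncertain.

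**Figure D4:**
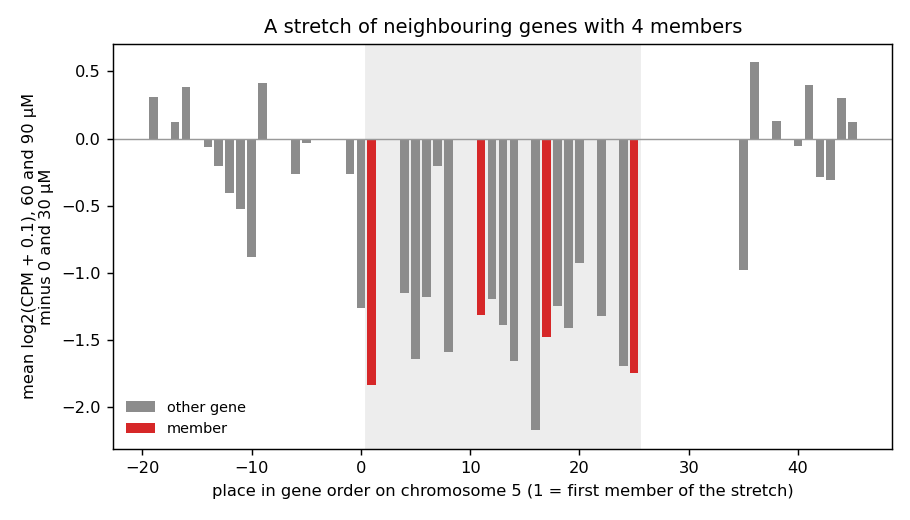
Mean log2(CPM + 0.1) at 60 and 90 µM minus that at 0 and 30 µM, for genes in order along chromosome 5, with members in red and other genes within the level limits in grey. Gaps are genes outside the level limits. Within the shaded stretch of 25 genes all bars point down, and in the 20 genes on each side they lie on both sides of 0.

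Outside the stretch, neighbours of members were closer to the other genes. Taking the 5 nearest genes within the level limits on each side of the 51 other members, and leaving out members, gave 510 genes. Their median difference was -0.11, against -0.07 for all 17435 genes, and 29.2% of them were lower at both 60 and 90 µM than at both 0 and 30 µM, against 25.5%. Whether these shares differ was not tested.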

How the data were processed

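Leaf RNA of plants under drought was sequenced at 4 ABA doses, 1 library each. The deposited file holds whole-number counts of reads per gene, without normalization by the authors. Per the submitters' processing notes, FastQC, HISAT2 and featureCounts were used. No version, build or strand option, and no treatment of reads with several mapping places, is given in the sources used here. Reads of near-identical or overlapping genes, and of antisense partners, may therefore be mixed.

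Libraries were scaled to CPM by column totals of 22118468 to 28366719 counts. The members and lists were chosen with earlier results of these data known. Ratios carry exact conditional binomial (Clopper-Pearson) intervals (scipy 1.17.1), and a gene is called when the interval lies wholly above 2 or below 0.5. This is a rule of size, not a test. The calculation was run on simulated data that held counting error only. Differences between plants are not covered by it. Named genes are the 10 members with the most reads, the 10 with the largest fold of the rule, the 4 highest and 4 lowest ratios of 30 to 0 µM and 4 genes on each side of the limit. Genes in and next to the stretch on chromosome 5 were also named, after its values were seen. Classes and gene order came from the RefSeq table (27509 identifiers matched by symbol). Promoter and protein sequences were not analysed here. Alternatives were TMM factors (edgeR 4.0.16), other level limits, another added CPM and other fold limits.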

Additional observations from a re-analysis of the deposited data

How the results depend on the processing

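Of 71 recomputed values, 49 stayed on their side of the limits set for a change (1.5 times for a count, 0.1 for a log2 median), 21 moved and 1 changed sign. With TMM scaling 40 genes met the rule, 38 of them among the 55, and 25 of those 40 were called lower at 90 against 30 µM. Membership near the limit therefore depends on the scaling. With a fold of at least 3 the rule kept 7 genes, and all 7 were called lower in each of the 4 comparisons. The median log2 ratio of 30 to 0 µM of these 7 was -0.0201. Without the bound on 90 to 60 µM, 87 genes met the rule. With a mean CPM of at least 5, 38 genes met it, and 19 of those were called lower at 90 against 0 µM. With a bound of 4-fold in place of 2-fold on the interval, the members called lower were 3 at 60 and 2 at 90 against 0 µM, and 5 at 60 and 2 at 90 against 30 µM. The count of selected genes called higher at 30 against 0 µM, with the interval wholly above the bound, was 1 in the main setting. It was 0 under TMM scaling, with 1 added to each CPM, with a fold of at least 3 and with the 4-fold bound. The count of lncRNA members was 0 under TMM scaling, a mean CPM of at least 5, 1 added to each CPM and a fold of at least 3, and 2 with a mean CPM of at least 1. Stricter limits leave fewer genes by construction. Under TMM scaling LOC116202871, the member called higher at 30 µM, and the lncRNA gene LOC116187197 no longer met the rule. The cause of the other changes was not tested. For the stretch on chromosome 5, with alternatives chosen after seeing the data, the other genes lower at both larger doses were 12 of 14 under TMM scaling and 11 of 13 with a mean CPM of at least 5, and their median difference lay between -1.39 and -1.27. No paired analysis was possible because each dose has 1 library. Depth limits the genes with few reads most, and the counting interval of the smallest fold includes 2 for 37 of the 55 members.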
